A study of Homo sapiens with 8 samples.

Results

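HCT116 cells, a human colon carcinoma line, carrying a CRISPR-Cas9 knock-in of E33Q in MED12 (glutamate to glutamine) were profiled before and after interferon-gamma (IFN-γ). Of the 8 RNA-seq libraries of the series, 4 belong to this experiment: 2 replicate libraries of untreated E33Q cells, labelled 0 h, and 2 of E33Q cells kept for 24 h in 5 ng/ml IFN-γ. The other 4 libraries, of wild-type HCT116 cells under the same conditions, entered the fit and served to test where the E33Q response differed. All gene rows were described and the ERCC spike-in rows were left out. 16519 genes had enough counts to be tested. Both lines were grown in McCoy's medium with serum, and the libraries were made from rRNA-depleted total RNA. The labels name 1 knock-in line and do not say whether it is a single clone. The untreated libraries are labelled 0 h, so the cytokine and 24 h of further culture cannot be told apart.

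IFN-γ binds a receptor of IFNGR1 and IFNGR2 chains. The Janus kinases JAK1 and JAK2 on these chains activate STAT transcription factors, which enter the nucleus as dimers and bind gamma-activated sites. IRF1 is induced in turn and, like complexes of STAT2 and IRF9, binds interferon-stimulated response elements. In epithelial cells the program is known for antigen presentation, guanylate-binding proteins, antiviral effectors and tryptophan breakdown. MED12 is a subunit of the Mediator kinase module, where with cyclin C it activates CDK8 or CDK19, kinases that act on transcription factors. The series asks how an activating segment of MED12 stimulates CDK8, and the knock-in changes a residue of that segment.

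The 4 E33Q libraries held 20873145 and 28006378 gene counts untreated and 24086889 and 22177166 with IFN-γ. The spike-in share was 0.138% and 0.141% untreated and 0.263% in each treated library. The count-weighted mean GC content of transcripts was 46.80% and 46.87% untreated and 49.41% and 49.44% treated. Of 18 epithelial markers 17 were tested, and the summed counts of the list were 68939 and 94002 untreated and 157906 and 144696 treated. Of 18 intestinal identity genes only 6 were tested, and CDX1, FABP1, MUC2, TFF3, ATOH1 and OLFM4 had no counts in the 4 libraries. The mRNA level of MED12 does not check a change of 1 residue. Plasma and B cell markers summed to 13 counts in untreated replicate 1 and 35 in treated replicate 1, but to 8116 and 6587 in the replicates numbered 2. Other leukocyte markers summed to 276 and 980 untreated and to 329 and 979 treated. The source of these transcripts was not tested, and in bulk RNA fewer cells of a type and less RNA per cell cannot be told apart. Fibroblast markers (109 to 190 counts) and endothelial markers (120 to 228 counts) stayed low in all 4 libraries.

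About as many genes rose as fell after IFN-γ, and the steepest rises among named genes were those of interferon-inducible ones. A gene was called when edgeR's quasi-likelihood test gave a Benjamini-Hochberg adjusted p at or under 0.05. On this rule 8613 of 16519 genes (52.1%) were called, 4356 higher (26.4%) and 4257 lower (25.8%). Scaled to the spike-ins instead, 617 were higher and 5477 lower. With the trend on GC content and length removed within each library, 2998 of the 16519 were higher and 2477 lower. Without the replicates numbered 2, which leaves 1 library a group in this line, 1292 were higher and 2233 lower. The median log2 fold change over all tested genes was 0.12, with quartiles of -0.68 and 0.83. Scaling to the spike-ins moved this median to -0.41. Changes of 2-fold or more were called upward for 2341 genes (14.2%) and downward for 2235 (13.5%). Rises of 8-fold or more were called for 146 genes, of which 76 were annotated as protein-coding and 61 had identifiers that GENCODE 29 does not name.

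IDO1, SLC15A3 and GBP1 led these rises among named genes. Levels below are CPM, estimated counts scaled to the library total after adjustment by its TMM factor. Each fold change is the log2 ratio of the treated over the untreated group ± an SE derived from the test statistic. This SE can be too small for genes near 0 counts in a group. IDO1, which starts the breakdown of tryptophan, had no counts in either untreated library and 350 and 328 counts after IFN-γ. Against a floor of 3 counts per library this was at least 89.3-fold higher. SLC15A3, a lysosomal peptide and histidine transporter, went from no counts to 5.68 and 6.74 CPM, at least 42.8-fold higher. GBP1, a GTPase that coats intracellular bacteria, stood at 0.223 and 0.123 CPM untreated and at 108 and 102 CPM treated. Its log2 fold change was 9.26 ± 0.31 (edgeR adjusted p = 9.62e-07). CASP1, the inflammasome protease, had 0 and 3 counts untreated and 159 and 175 treated, a ratio of 90.0 with a 95% exact counting interval of 30.5 to 439. In none of these genes did the treated libraries overlap the untreated ones, as was so for 42.7% of all genes with the treated libraries higher and 36.2% with them lower.

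**Figure D1:**
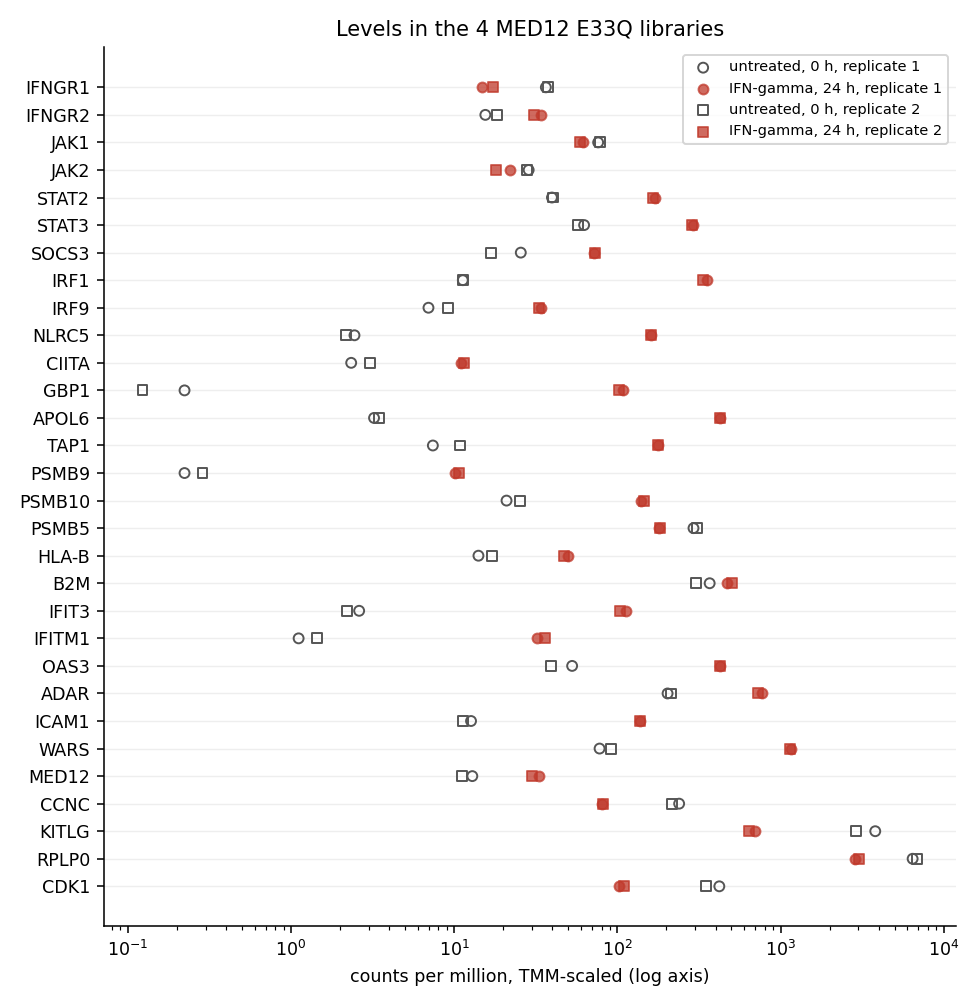
CPM (log axis) of 30 genes in the 4 E33Q libraries; open grey symbols are untreated (0 h), filled red symbols IFN-γ (24 h), circles replicate 1 and squares replicate 2. The replicates lie close together, and GBP1 moved from 0.223 and 0.123 to 108 and 102, whereas IFNGR1, JAK1, JAK2, PSMB5, CCNC, KITLG, RPLP0 and CDK1 lie to the left of their untreated symbols.

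The promoters shown are examples of strong responders with a match to a recognition element of the pathway close to the start. Not every strong responder had one: the listed promoters of BATF2 and PSMB9 held no match to either element. That of LGALS9 held a match and is not shown. IDO1, SLC15A3, APOL6 and NLRC5 were among those without a listed promoter. The sequences are from RefSeq (GRCh38.p14), run 5′ to 3′ on the gene's strand and end at the base before the start. Capitals mark a match to the core of the interferon-stimulated response element (GAAA, 2 bases of any kind, GAAA, on either strand) in GBP1 and IFIT3, and to TTCNNNGAA (the core of the gamma-activated site) in OAS1 and IRF1.
GBP1 (chr1:89065209-89065368, minus strand): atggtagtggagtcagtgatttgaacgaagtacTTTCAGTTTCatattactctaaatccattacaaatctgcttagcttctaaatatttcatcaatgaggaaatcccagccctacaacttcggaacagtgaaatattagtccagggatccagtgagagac
IFIT3 (chr10:89327831-89327996, plus strand): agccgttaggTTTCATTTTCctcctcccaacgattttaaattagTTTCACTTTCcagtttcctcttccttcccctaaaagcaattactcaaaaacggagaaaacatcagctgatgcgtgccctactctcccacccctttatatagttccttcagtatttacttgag
OAS1 (chr12:112906784-112906961, plus strand): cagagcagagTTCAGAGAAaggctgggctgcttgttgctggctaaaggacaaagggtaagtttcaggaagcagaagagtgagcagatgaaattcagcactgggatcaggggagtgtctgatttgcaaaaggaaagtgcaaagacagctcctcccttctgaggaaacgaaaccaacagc
IRF1 (chr5:132490774-132490933, minus strand): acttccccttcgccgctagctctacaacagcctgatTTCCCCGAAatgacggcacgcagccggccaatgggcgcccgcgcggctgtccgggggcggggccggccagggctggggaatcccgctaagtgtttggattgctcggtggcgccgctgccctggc

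Of 287 genes called higher by 4-fold or more, only 126 had a listed promoter, and the shares describe these alone. A promoter was counted from 250 bases before to 50 bases after the first listed start. The response element core occurred in 41 of the 126 (32.5%) and TTCNNNGAA in 20 (15.9%), and 11 held both. Over all 11335 tested genes with a promoter the shares were 2.88% and 6.14%, and over all 27305 promoters listed 3.65% and 7.88%. Genes that rose by 2-fold or more but under 4-fold had shares of 2.80% and 5.18%. Genes called lower had shares of 2.61% and 7.30%. The motif shares thus stood above those of all tested promoters in the steepest class and not in the milder one. A match is a description of the letters and not a bound site. Both strands were searched, the motifs may overlap each other, and a promoter with several matches was counted once.

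**Figure D2:**
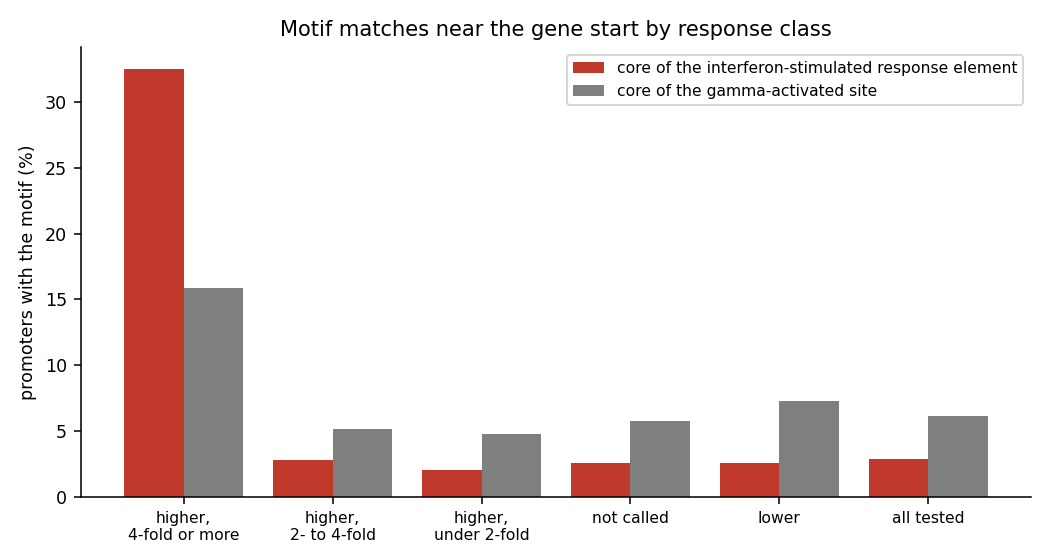
Percentage of promoters (y axis) that hold the core of the interferon-stimulated response element (red) or of the gamma-activated site (grey), by response class in E33Q cells (x axis). The 126 promoters of the class called higher by 4-fold or more stand at 32.5% and 15.9%, against 2.88% and 6.14% of the 11335 tested genes with a promoter.

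The receptor chains moved apart. IFNGR1, the ligand-binding chain, was at 36.5 and 37.6 CPM untreated and at 14.9 and 17.4 CPM treated, a log2 fold change of -1.20 ± 0.18 (edgeR adjusted p = 0.00066). IFNGR2, the signalling chain, rose from 15.5 and 18.3 to 34.0 and 30.7 CPM (0.93 ± 0.17). The IFNGR1 fall was -0.31 (adjusted p = 0.0907) once the trend on GC content and length was removed, and the IFNGR2 rise was 0.40 (adjusted p = 0.200) on the spike-in scale. JAK1 and JAK2 were called slightly lower, at -0.37 and -0.50. Each call was lost when either of the treated or either of the untreated E33Q libraries was left out, and JAK2 turned to 0.14 with the GC trend removed.

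STAT2 and STAT3 mRNAs rose and STAT4 mRNA fell. STAT2, the partner of IRF9, went from 39.8 and 40.2 to 169 and 164 CPM (2.06 ± 0.13). STAT3, which answers to interleukin-6 family cytokines, went from 62.6 and 57.1 to 290.4 and 288 CPM (2.27 ± 0.18). In STAT2 and STAT3 the treated libraries lay above both untreated ones, and the rises kept their call on the spike-in scale. Of the 14 receptor, kinase and STAT genes, 7 were called higher and 5 lower (median 0.70, against 0.12 over all genes). The shares of all genes were 26.4% and 25.8%. On the spike-in scale 3 of the 14 were higher and 5 lower. STAT4 was among the lower ones, at 3.68 and 5.13 CPM untreated and 1.32 and 2.07 CPM treated. Its adjusted p of 0.0136 became 0.260 with the GC trend removed, and the call was lost without untreated replicate 2 or without treated replicate 1 (lowest adjusted p 0.0918).

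Of 13 feedback inhibitors of this pathway 8 were called higher and 4 lower (median 0.87), against 26.4% and 25.8% of all genes. On the spike-in scale 3 were higher and 5 lower. Without the GC trend 4 were higher and 2 lower. SOCS1, which blocks JAK activity, rose from 0.445 and 0.164 to 3.88 and 2.75 CPM (3.47 ± 0.59), and SOCS3 from 25.6 and 16.8 to 71.9 and 72.7 CPM (1.77 ± 0.26). USP18, which removes ISG15 from proteins and dampens type I receptor signalling, rose from 8.07 and 6.93 to 34.3 and 35.7 CPM (2.22 ± 0.18). In the other direction, SOCS2 fell from 22.7 and 18.9 to 7.73 and 9.13 CPM (-1.30 ± 0.19). PTPN2, a phosphatase of JAK1, fell from 121 and 116 to 49.5 and 47.7 CPM (-1.29 ± 0.18). Without the GC trend the PTPN2 fall was -0.38 and the SOCS3 rise 0.85, both still called. The inhibitors of this list did not all move one way.

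Among 8 tested interferon regulatory factors 5 rose and none fell, against 3 rises without the GC trend and 2 on the spike-in scale. IRF3 (0.69) and IRF5 (0.86) lost their calls under both, at 0.17 (adjusted p = 0.267) and 0.00 (adjusted p = 0.999) without the GC trend. IRF1 went from 11.3 and 11.4 CPM to 352 and 335 CPM (4.92 ± 0.17, adjusted p = 9.62e-07). IRF9, the DNA-binding partner of STAT2, went from 6.96 and 9.23 to 33.9 and 33.1 CPM (2.04 ± 0.19). IRF2 went from 4.90 and 9.35 to 21.4 and 20.2 CPM (1.53 ± 0.33), a rise not called on the spike-in scale (adjusted p = 0.0871). IRF7, a driver of type I interferon genes, stood at 4.79 and 2.79 untreated and 10.2 and 8.21 CPM treated and missed the threshold (1.29 ± 0.59, adjusted p = 0.0986). IRF4, which marks plasma cells, stood at 0.167 and 18.0 CPM untreated and at 0.513 and 14.9 CPM treated, low in both libraries numbered 1 and high in both numbered 2, as the plasma cell markers were.

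Of 13 other transcription regulators of the interferon program 11 rose and none fell (median 2.28). NLRC5, the transactivator of MHC class I genes, rose from 2.45 and 2.17 to 159.9 and 161 CPM (6.12 ± 0.23, adjusted p = 1.18e-06). BATF2, a basic leucine zipper factor, rose from 0.780 and 0.287 to 33.9 and 32.7 CPM (6.03 ± 0.49). ETV7, an ETS family factor, rose from 1.06 and 1.44 to 48.4 and 43.4 CPM (5.18 ± 0.21). CIITA, the class II transactivator, rose far less, from 2.34 and 3.04 to 10.98 and 11.4 CPM (2.05 ± 0.38). In each of the 4 genes both treated libraries lay above both untreated ones. CIITA lost its call with the GC trend removed (1.19, adjusted p = 0.0688).

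The guanylate-binding proteins and the apolipoproteins L held the steepest families. Of 6 tested guanylate-binding proteins, GTPases that attack pathogen compartments, 5 rose (median 3.53). Beside GBP1, GBP2 rose from 0.780 and 0.943 to 22.7 and 19.3 CPM (4.58 ± 0.25) and GBP4 from 2.004 and 1.52 to 31.7 and 31.1 CPM (4.17 ± 0.30). GBP5 reached only 2.16 and 1.91 CPM from 0.501 and 0.492 CPM (2.02 ± 0.52), and its call was lost on the spike-in scale (adjusted p = 0.0620) and without untreated replicate 2 or treated replicate 1. GBP6 stood at 0.334 and 0.287 CPM untreated and 0.439 and 0.319 CPM treated and was not called. The rising members lie side by side: GBP3, GBP1, GBP2, GBP4, GBP5 and the pseudogene GBP1P1 all rose by 4-fold or more between bases 89006666 and 89426243 of chromosome 1 (GRCh38, GENCODE 29).

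Of 5 tested apolipoproteins L, lipid-binding proteins that include the trypanosome lytic factor APOL1, 4 rose (median 6.32). APOL6 went from 3.23 and 3.45 CPM to 427 and 424 CPM (6.99 ± 0.19, adjusted p = 3.07e-07). APOL3 went from 0.167 and 0.123 to 28.3 and 27.1 CPM (7.55 ± 0.27), and APOL1 from 0.390 and 0.410 to 32.3 and 32.6 CPM (6.32 ± 0.25). APOL4 stood at 3.90 and 4.10 CPM untreated and 5.27 and 4.63 CPM treated and was not called (adjusted p = 0.385). The 4 risers span bases 35648395 to 36267530 of chromosome 22. Runs of at least 3 named genes that rose by 4-fold or more, each within 500 kb of the next, numbered 10 in the genome, among them OAS1, OAS3 and OAS2 on chromosome 12 and PARP9, DTX3L and PARP14 on chromosome 3.

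**Figure D3:**
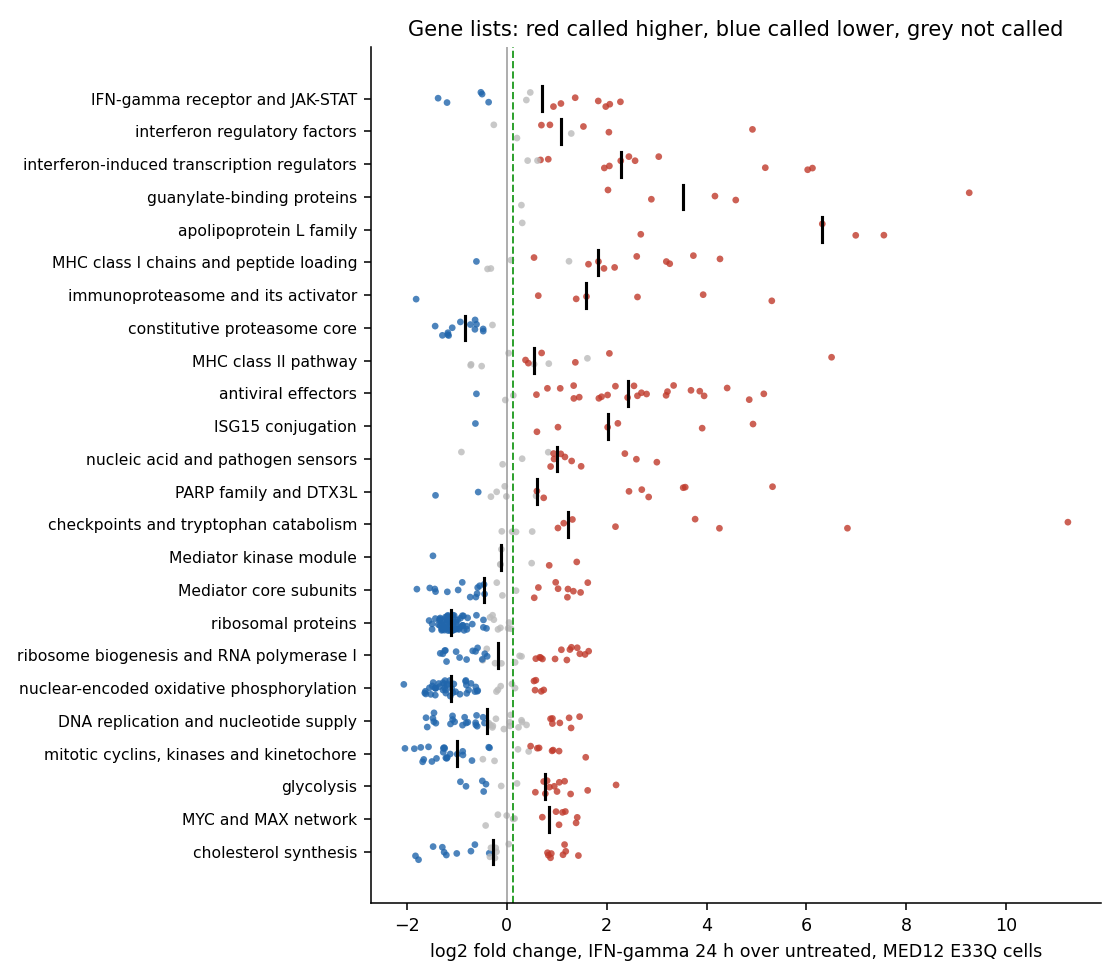
Log2 fold change of each tested gene of 24 lists in E33Q cells (x axis), red where called higher, blue where called lower, grey where not called; black bars are list medians, the grey line is 0 and the dashed green line the median of all genes (0.12). The interferon-linked lists reach far to the right, with a median of 6.32 for the apolipoproteins L, and ribosomal proteins and nuclear oxidative phosphorylation genes lie to the left, with medians of -1.12.

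Genes of MHC class I presentation rose in E33Q cells with different steepness along the pathway. Of 15 tested genes 10 were called higher and 1 lower (median 1.83). TAP1, which with TAP2 pumps peptides into the endoplasmic reticulum, rose from 7.41 and 10.9 to 178.5 and 177.5 CPM (4.27 ± 0.27). TAPBP, the bridge between class I molecules and this pump, rose from 3.01 and 2.63 to 38.04 and 15.8 CPM (3.26 ± 0.38), with the treated replicates apart from each other but above both controls. The trimming peptidases ERAP1 and ERAP2 rose by 2.60 ± 0.13 and 2.16 ± 0.18. HLA-E rose from 6.90 and 6.23 to 65.2 and 54.8 CPM, and HLA-B from 14.1 and 17.1 to 49.7 and 47.2 CPM. B2M, the light chain, rose from 368 and 304 to 472 and 507 CPM (0.54 ± 0.19). Its call was lost when either treated library or untreated replicate 2 was left out, when either treated wild-type library was, and with DESeq2's size factors, and on the spike-in scale it stood at 0.01. Reads of near-identical HLA genes can be split between identifiers by the estimation of counts, so the levels of single HLA genes are uncertain.

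The inducible catalytic subunits of the proteasome rose, while most genes of the constitutive core fell, fewer of them with the GC trend removed. PSMB9, an interferon-inducible catalytic subunit, rose from 0.223 and 0.287 to 10.1 and 10.8 CPM (5.31 ± 0.34), and PSMB10 from 20.9 and 25.4 to 139.7 and 145 CPM (2.62 ± 0.14). PSMB8 rose from 0 and 0.246 to 1.90 and 2.31 CPM. The activator subunits PSME1 and PSME2 rose by 1.39 ± 0.15 and 1.59 ± 0.13. Of 14 genes of the constitutive core none rose and 13 fell (median -0.83). PSMB5, the constitutive counterpart of PSMB8, fell from 293 and 309 to 179 and 183 CPM (-0.73 ± 0.13), and PSMB7, the counterpart of PSMB10, from 442 and 450 to 205 and 212 CPM (-1.10 ± 0.14). Once the GC trend was removed 5 of the 14 core genes were lower and 1 was higher (median -0.14). PSMB5 then kept its call at -0.52 (it was lost without the replicates numbered 2, adjusted p = 0.0759) and PSMB7 did not (-0.16, adjusted p = 0.161). The assembly factor POMP fell from 71.6 and 76.7 to 20.6 and 21.5 CPM (-1.82 ± 0.17), and this also lost its call there (-0.25, adjusted p = 0.116).

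Genes of the MHC class II pathway differed widely in level. Of 19 listed genes 13 were tested, 6 rose and none fell (median 0.54), and HLA-DRA and HLA-DRB5 had no counts in any of the 4 libraries. LGMN, a lysosomal protease of the pathway, rose from 22.0 and 28.5 to 64.8 and 66.2 CPM (1.37 ± 0.22), a call missed on the spike-in scale (adjusted p = 0.0734), where 1 gene of the list was higher and 1 lower. CD74, the invariant chain, stood at 0.111 and 24.6 CPM untreated and at 4.98 and 31.7 CPM treated, so that untreated replicate 2 lay above treated replicate 1 and the groups overlapped. It was not called (0.54 ± 1.19, adjusted p = 0.741), and without the libraries numbered 2, which carry the plasma cell markers, its log2 fold change was 5.41 (adjusted p = 0.00229).

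Antiviral effectors rose together: 24 of 27 tested genes rose and 1 fell (median 2.42). OAS1, an oligoadenylate synthetase, rose from 0.278 and 0.369 to 12.5 and 11.2 CPM (5.15 ± 0.41). Its neighbour OAS3 rose from 52.8 and 39.0 to 427 and 426 CPM (3.22 ± 0.20). BST2, the tetherin that holds virus particles at the cell surface, rose from 1.503 and 2.42 to 33.2 and 28.5 CPM, and EPSTI1 from 0.613 and 0.902 to 22.1 and 22.8 CPM. ADAR, the editor of double-stranded RNA, rose from 203 and 213 to 765.5 and 727 CPM (1.84 ± 0.13).

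The IFIT family split. IFIT3 rose from 2.62 and 2.22 to 113 and 103 CPM (5.49 ± 0.22) and IFIT2 from 3.01 and 3.98 to 15.5 and 14 CPM (2.07 ± 0.30). IFIT1, which binds foreign RNA ends and was abundant before treatment, stood at 25.5 and 23.4 CPM untreated and at 27.6 and 30.9 CPM treated (0.26 ± 0.19, adjusted p = 0.275). IFIT5 stood at 107.5 and 93.2 CPM untreated and at 93.4 and 89.9 CPM treated (-0.13 ± 0.18). Both were called higher after removal of the GC trend, each at 0.78 (adjusted p = 0.00254 and 0.000396). The membrane protein IFITM1 rose from 1.11 and 1.44 to 32.3 and 36.0 CPM (4.72 ± 0.22).

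Of 7 genes of ISG15 conjugation, the ubiquitin-like tagging of new proteins, 6 rose and 1 fell (median 2.02). The activating enzyme UBA7 rose from 0.501 and 0.943 to 25.7 and 19.9 CPM (4.93 ± 0.45), and the conjugating enzyme UBE2L6 from 15.1 and 19.1 to 255 and 261 CPM (3.91 ± 0.16). ISG15 itself rose from 82.4 and 89.6 to 178 and 172 CPM (1.02 ± 0.13). HERC5, its main ligase, was the lower one, at -0.63 ± 0.18, and stood at 0.19 (adjusted p = 0.39) with the GC trend removed. Its call was also lost without untreated replicate 2 or either treated replicate. UBA7 and UBE2L6 thus rose more than ISG15 in fold.

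Of 14 sensors of nucleic acids and pathogens 10 rose and none fell (median 1.01), and on the spike-in scale 3 rose (median 0.48). IFIH1, the cytosolic RNA sensor MDA5, rose from 8.85 and 9.84 to 56.3 and 56.9 CPM (2.59 ± 0.16), and TLR3, the endosomal one, from 9.86 and 9.76 to 52.0 and 48.9 CPM (2.36 ± 0.14). Of 15 genes of the PARP family with DTX3L, 8 rose and 2 fell (median 0.60). PARP9 and its partner DTX3L, which share a promoter region and act as a ubiquitin ligase complex, rose from 29.3 and 28.1 to 339 and 344 CPM and from 26.3 and 26.3 to 302 and 307 CPM. PARP14 rose from 64.5 and 58.2 to 406 and 392.3 CPM. TIPARP, an aryl hydrocarbon receptor target, fell from 122 and 125 to 48.5 and 43.0 CPM (-1.43 ± 0.16, or -0.90 without the GC trend). Of 10 interferon-linked TRIM ligases 6 rose and none fell, TRIM22 by 2.57 ± 0.29 and TRIM25 by 2.02 ± 0.16. Of 6 APOBEC3 deaminases 3 rose and 1 fell (against 26.4% and 25.8% of all genes). APOBEC3G rose most, from 1.00 and 2.17 to 8.90 and 11.2 CPM.

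Immune checkpoint and tryptophan genes rose in 8 of 12 tested cases and fell in none (median 1.23), and on the spike-in scale 5 rose. WARS, the tryptophanyl-tRNA synthetase, reached 1167 and 1142 CPM from 77.8 and 91.2 CPM (3.77 ± 0.17), among the highest levels of any gene that rose by 2-fold or more. CD274, which encodes PD-L1, rose from 5.01 and 3.36 to 19.4 and 18.2 CPM (2.17 ± 0.34). LGALS9, a ligand of TIM-3, rose from 0.167 and 0.0820 to 12.9 and 15.3 CPM. Of 24 caspase and death pathway genes 11 rose and 4 fell (against 26.4% and 25.8% of all genes), and on the spike-in scale 2 and 7. The death receptor FAS fell by 1.01 on the log2 scale, a call lost with the GC trend removed (-0.12, adjusted p = 0.495). Of 13 tested complement genes 5 rose and 4 fell, against the same shares of all genes. The counts were 6 and 1 without the GC trend, and 4 and 4 on the spike-in scale. Among the risers, complement factor B (CFB) went from 0.278 and 0.164 to 6.99 and 6.82 CPM. The proteases C1R and C1S rose by 2.95 ± 0.29 and 1.93 ± 0.31. Of 15 listed chemokine and adhesion genes only 8 were tested, and CXCL9, CXCL10 and CCL2 had no counts in the 4 libraries, where the floor was 3 counts per library. ICAM1, the ligand of leukocyte integrins, rose from 12.7 and 11.3 to 137 and 138 CPM (3.52 ± 0.14).

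Beside receptors, feedback, death, complement and chemokine genes and the proteasome core, 15 interferon-linked lists described above held 163 different tested genes. Of these 114 rose and 7 fell (median 1.49, against 26.4% and 25.8% of all genes). With the GC trend removed 113 were higher and 2 lower, and 101 genes were higher in both analyses. On the spike-in scale 78 were higher and 13 lower (median 0.95, against -0.41 over all genes), and without the replicates numbered 2 there were 86 and 2.

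Mediator itself changed unevenly. MED12 stood at 12.9 and 11.2 CPM untreated and at 33.3 and 30.1 CPM treated (1.40 ± 0.24, adjusted p = 0.00105). The rise was 0.69 with the GC trend removed (adjusted p = 0.0091) and 0.87 on the spike-in scale, where it missed the threshold (adjusted p = 0.0821). CCNC, which encodes cyclin C, fell from 239 and 216 to 80.8 and 81.9 CPM (-1.48 ± 0.15), and lost the call with the GC trend removed (-0.20, adjusted p = 0.0740). CDK8 stood at 42.2 and 35.0 CPM untreated and at 33.7 and 36.9 CPM treated and was not called (-0.13 ± 0.14), nor was MED13 (-0.11 ± 0.14). Removal of the GC trend turned both to called rises, at 0.61 and 0.41, whereas on the spike-in scale both were called lower (-0.66 and -0.64). MED13L rose by 0.85 ± 0.13, a call missed on the spike-in scale (0.32, adjusted p = 0.248) and without the replicates numbered 2 (adjusted p = 0.0732). Of 26 other Mediator subunits 9 rose and 14 fell (median -0.45), against 26.4% and 25.8% of all genes. The counts were 7 and 6 (median -0.07) without the GC trend, and 1 and 15 (median -0.98) on the spike-in scale. MED15, of the tail, rose by 1.62 ± 0.24 and MED21, of the middle module, fell by 1.80 ± 0.21 on the log2 scale, or 0.85 and -0.64 without the GC trend.

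Many highly expressed genes of translation and respiration fell. Of 79 cytosolic ribosomal protein genes none rose and 71 fell (median -1.12). RPLP0, of the ribosomal stalk, fell from 6451 and 6854 to 2852 and 3023 CPM (-1.18 ± 0.12), and RPS3A from 3260 and 3340 to 1075 and 1165 CPM (-1.56 ± 0.16, or -0.47 without the GC trend). In both genes the treated libraries lay below both untreated ones. After removal of the GC trend 62 of the 79 were lower and none higher (median -0.58). Of 50 nuclear genes of oxidative phosphorylation 5 rose and 40 fell (median -1.12), and with the GC trend removed 4 and 27 (median -0.31). NDUFB6, of complex I, fell from 45.0 and 36.9 to 9.85 and 9.69 CPM (-2.07 ± 0.21, or -0.92 without the GC trend). Of 11 tested mRNAs encoded in mitochondria 1 was called, MT-CO3, lower (-1.09 ± 0.15, or -0.20 without the GC trend), and without the GC trend 4 were called higher and none lower. The elongation factor mRNA EEF2 rose, from 1478 and 1204 to 3115 and 3152 CPM (1.23 ± 0.19, not called on the spike-in scale, adjusted p = 0.0629), while HSP90AA1, the stress-inducible chaperone, fell by 1.22 ± 0.16 (-0.69 without the GC trend).

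Genes of mitosis fell more than they rose: 22 of 33 were lower and 7 higher (median -1.0). TTK, a spindle checkpoint kinase, fell from 437 and 390.1 to 99.3 and 101 CPM (-2.04 ± 0.16). CDK1 fell from 422 and 348 to 103 and 109.9 CPM (-1.85 ± 0.16), and its partner CCNB1 from 290.5 and 315 to 90.7 and 97.2 CPM (-1.69 ± 0.19). CDC25B, the phosphatase that activates CDK1, rose from 15.8 and 18.4 to 53.02 and 49.2 CPM (1.58 ± 0.27), a call missed on the spike-in scale (adjusted p = 0.0570). Of 40 genes of DNA replication and nucleotide supply 20 were lower and 7 higher (median -0.41). PCNA, the sliding clamp, fell from 632 and 688 to 246 and 233 CPM (-1.46 ± 0.19). Without the GC trend 18 of the 33 (median -0.36) and 18 of the 40 (median -0.21) were called lower, and the changes were smaller, at -0.76 for TTK, -0.48 for CDK1, -0.86 for CCNB1, -0.84 for PCNA and 0.74 for CDC25B. On the spike-in scale 24 mitotic genes were lower and none higher, and 26 replication genes lower and 1 higher.

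Single genes fell further. KITLG, which encodes stem cell factor, stood at 3807 and 2888 CPM untreated and at 699 and 645 CPM treated (-2.32 ± 0.18, adjusted p = 6.48e-05), and at -1.66 with the GC trend removed. CCNG1, a p53 target, fell from 513 and 452 to 108 and 117.5 CPM (-2.10 ± 0.17). SELENOP, a selenium carrier, fell from 12.6 and 11.3 to 2.01 and 1.79 CPM (-2.65 ± 0.30), and PFDN4, a prefoldin subunit, from 90.7 and 84.4 to 16.9 and 19.2 CPM (-2.28 ± 0.20). TNFSF18, the ligand of GITR, fell from 87.4 and 78.9 to 14.9 and 19.3 CPM (-2.28 ± 0.34). Without the GC trend these falls were smaller and still called, at -0.89 for CCNG1, -1.54 for SELENOP, -1.11 for PFDN4 and -1.16 for TNFSF18. The identifiers named SCO2 and AC138811.2 went to no counts in the treated libraries. A second identifier carries the name SCO2 and overlaps the first, so its change may be a shift of estimated counts between them.

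Metabolic and growth genes moved in both directions. Of 19 glycolysis genes 12 rose and 5 fell (median 0.77), and on the spike-in scale 2 and 6. Hexokinases led the rises, HK1 from 22.4 and 20.9 to 101 and 96.0 CPM (2.19 ± 0.18) and HK2 from 39.8 and 33.1 to 112 and 112 CPM (1.62 ± 0.16, or 0.99 without the GC trend). Of 24 genes of cholesterol synthesis 8 rose and 10 fell (median -0.28, against 26.4% and 25.8% of all genes called higher and lower), and on the spike-in scale 1 and 15. SREBF2, which encodes the sterol-responsive activator, rose from 46.2 and 36.3 to 112 and 111 CPM (1.43 ± 0.16, or 0.54 without the GC trend). Of 12 genes of the MYC and MAX network 7 rose and none fell (median 0.85), with MYC going from 92.4 and 105 to 260.2 and 264 CPM (1.41 ± 0.19, or 0.67 without the GC trend). Without the GC trend this list had 4 higher and 2 lower (median 0.14), and on the spike-in scale 1 and 3.

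Direction of change went with base composition. Of the genes with the lowest transcript GC content (31.6 to 43.0%), the first of 5 bins of equal size, 65.4% were called lower and 1.82% higher, with a median log2 fold change of -0.91. In the bin with the highest GC content (58.9 to 75.2%) 2.22% were lower and 53.5% higher, with a median of 0.89. The median GC content was 57.4% for genes called higher and 43.2% for genes called lower. Interferon-induced genes did not sit at one end: GBP1 has a GC content of 43.2%, APOL6 of 40.3% and NLRC5 of 56.9%. With the trend on GC content and length removed within each library, 2106 of the 4356 higher genes and 2004 of the 4257 lower genes kept their call and direction. Among the 146 rises of 8-fold or more 121 did. GC content was known for only 85 of these 146. The others received no correction for their own GC content, so their kept calls say little about the trend. Why GC content and response went together was not tested.

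**Figure D4:**
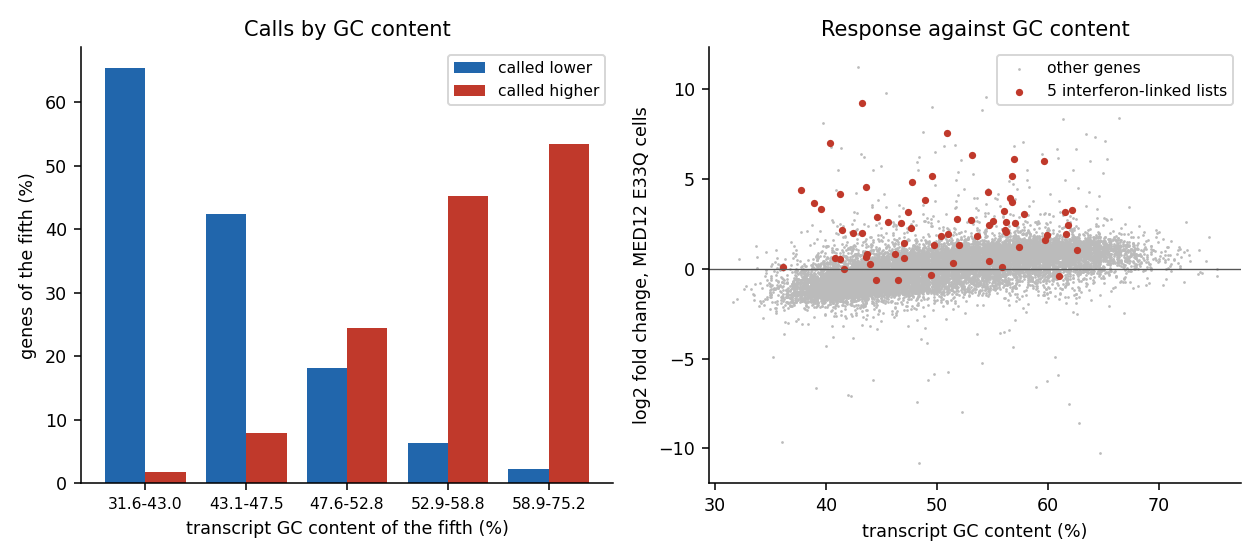
Left, percentage of genes called lower (blue) or higher (red) in each of 5 bins of transcript GC content; right, log2 fold change of each gene in E33Q cells (y axis) against its GC content (x axis), with the genes of 5 interferon-linked lists in red. Calls run from 65.4% lower in the first bin to 53.5% higher in the last, while red points stand high at GC contents from about 40.3% (APOL6) to 59.6% (BATF2).

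The response of E33Q cells was then set against that of wild-type cells. No gene of 16519 (0%) differed in response by edgeR's quasi-likelihood test of the difference at an adjusted p of 0.05 or less, while 1119 had an unadjusted p under 0.05. DESeq2 called 4 genes, limma-voom none, and edgeR without the filter on low counts 267. Across all tested genes the 2 sets of fold changes had a Pearson r of 0.515 and a Spearman rho of 0.757, given as a description, since genes are not replicates. Over the 163 genes of the interferon-linked lists the median response was 1.49 in E33Q and 1.36 in wild-type cells, and the fitted responses of 139 of them lay within 2-fold of each other.

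The genes below were picked after their values were seen, for a gap of at least 3 SE among the genes described above, leaving out those with no counts in a group. None passed the adjusted threshold (each adjusted p = 0.688). Lower responses in E33Q cells were those of GBP5 (difference -3.22 ± 0.87), IFIT1 (-0.84 ± 0.27), TIPARP (-0.98 ± 0.23) and JAK1 (-0.62 ± 0.17). GBP5 rose by 2.02 in E33Q and by 5.25 in wild-type cells. Its untreated wild-type level was near the floor, at 0.046 and 0.050 CPM, and the treated levels of the lines overlapped (1.79 and 2.24 CPM in wild-type cells). IFIT1 stood at 0.26 in E33Q and 1.10 in wild-type cells, where it went from 9.14 and 12.97 to 24.6 and 22.7 CPM. Wild-type TIPARP went from 60.05 and 81.4 to 51.2 and 52.0 CPM, and wild-type HK2 from 108 and 81.9 to 153.8 and 158.5 CPM. In GBP5, IFIT1, TIPARP and HK2 the lines thus also differed in the untreated libraries. The untreated libraries of the lines did not overlap in NLRC5, PSMB10 and JAK1 either. Higher responses in E33Q cells were those of NLRC5 (1.18 ± 0.29), APOBEC3G (2.31 ± 0.65), PSMB10 (0.82 ± 0.19) and HK2 (0.90 ± 0.23). NLRC5 went from 6.89 and 4.36 to 181 and 166 CPM in wild-type cells, a response of 4.94. In E33Q cells NLRC5 stood lower both untreated (2.45 and 2.17 CPM) and treated (159.9 and 161 CPM). Untreated PSMB10 stood at 20.9 and 25.4 CPM in E33Q and at 36.3 and 33.8 CPM in wild-type cells. The gaps thus ran in both directions among interferon-linked genes. MED12 itself differed by 0.65 ± 0.33 and KITLG by -0.70 ± 0.24, both under 3 SE. SYTL5, a Rab27 effector, fell in E33Q cells from 9.52 and 10.3 to 2.56 and 1.48 CPM, whereas wild-type cells had 0.276 and 0.751 CPM untreated and 0.877 and 0.857 CPM treated (difference -3.05 ± 0.67). Its fall missed the threshold without the replicates numbered 2 (-1.89, adjusted p = 0.0939). An adjusted p above the threshold does not show that the responses were alike.

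Some gaps to wild-type cells moved with plasma cell markers, which summed to 7429 and 7596 counts in the untreated and to 18 and 8 counts in the treated wild-type libraries. VIM, which encodes vimentin, and SDC1, a plasma cell marker, are examples picked after their values were seen. VIM stood at 21.9 and 40.5 CPM untreated and at 18.3 and 38.2 CPM treated in E33Q cells, and at 24.8 and 30.2 against 4.46 and 3.22 CPM in wild-type cells. SDC1 stood at 66.4 and 272 CPM untreated and 79.5 and 306 CPM treated in E33Q cells, and at 294 and 397 against 63.5 and 61.2 CPM in wild-type cells. Both were higher in the libraries with the marker counts than in those without, in each line. SDC1 still stood at 61.2 to 79.5 CPM in those without, so it did not track plasma cells alone. The part of these transcripts in other differences was not tested.

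**Figure D5:**
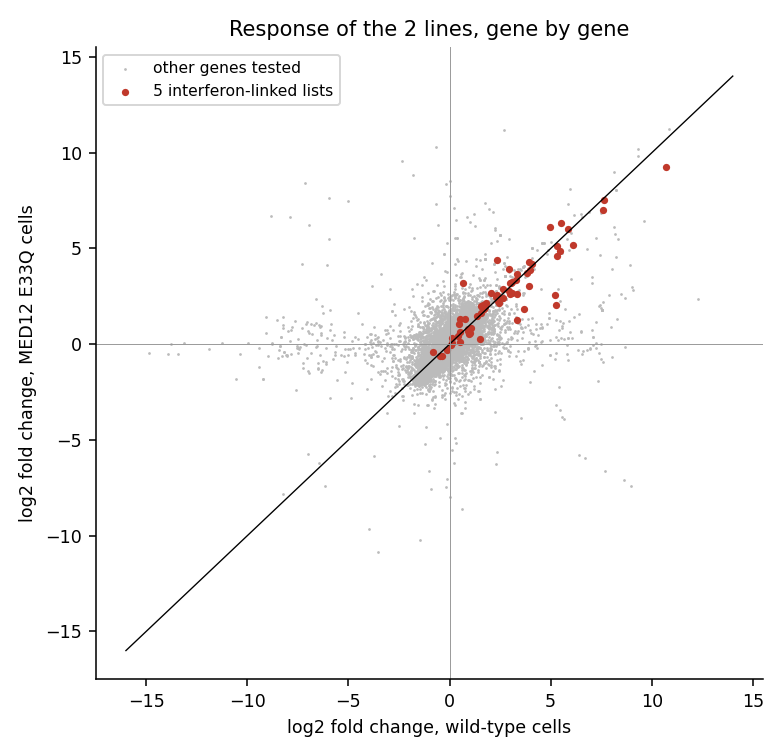
Log2 fold change with IFN-γ in E33Q cells (y axis) against wild-type cells (x axis), grey for all tested genes and red for the genes of 5 interferon-linked lists, with the line of equal response. Most red points lie near the line, whereas a long horizontal arm of grey points has E33Q values near 0. This arm includes genes with no counts in 1 group, whose fitted fold changes depend on the prior count. The 8 tested plasma and B cell markers, with medians of -10.12 in wild-type and -0.34 in E33Q cells, also have such values.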

How the data were processed

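Gene-level estimated counts were deposited by the authors as 1 table; per the submitters' processing notes, Trimmomatic, kallisto and the GRCh38 build were used. Their versions and the transcript annotation were not stated. The deposited estimated counts (40295 gene identifiers and 63 ERCC spike-ins, 58.3% of nonzero values not whole) were rounded. Gene names, types, coordinates, GC content and length came from GENCODE 29 (GRCh38), which named 35583 identifiers; unnamed identifiers held 2.23 to 3.05% of the counts. The totals per library, 20873145 to 28006378, limit precision most for genes below 1 CPM; intervals and floors cover counting error only.

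edgeR 4.0.16 (R 4.3.3) was fitted to all 8 libraries with group means only, TMM factors and filterByExpr (minimum count 10), so that the 4 groups share 1 estimate of the spread; the quasi-likelihood F test gave the E33Q response and its difference from the wild-type response, with Benjamini-Hochberg adjustment over all 16519 genes. Each SE was computed as |log2 fold change|/√F. It is not a direct standard error of the ratio and can be too small for genes near 0 counts in a group. For GBP1 it was 0.31 in E33Q and 0.36 in wild-type cells, but 0.89 for the difference. The labels call the replicates biological without saying what was prepared separately. The GC trend was removed per library with a loess offset (span 0.3) on GC content and length, known for 92.4% of tested genes. Genes without these values took the median of the library's fitted trend. Alternatives used DESeq2 1.42.0, limma 3.58.1, other scalings and filters, a replicate block, a 1.5-fold null and omission of libraries. The procedure was tested on simulated data.

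Members of the 52 gene lists and the genes named were chosen with earlier results of these data known: the 15 largest rises and falls, up to 5 called members per list, the 10 most abundant genes that changed by 2-fold or more in each direction, and a fixed set with MED12 and the pathway's core; further genes (PSMB5, PSMB7, SOCS2, PTPN2, OAS2, OAS3, ERAP2, PSME1, HERC5, TIPARP, C1S, CDC25B, GBP1P1 and those given as not called or at 0) were added after their values were seen. Genes below the filter were not tested, and a few genes are not reported here. The antisense and overlapping-gene counts rest on the authors' quantification, whose strand setting is not given.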

Additional observations from a re-analysis of the deposited data

Results flagged for a closer look

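The ERCC spike-in rows, used only as an alternative scaling and not among the genes tested, made up 0.263% of the counts in treated E33Q replicate 1 and 0.263% in treated replicate 2, above the 0.138% and 0.141% of the untreated libraries. This is a signal outside the main measurement that moved with the treatment. In wild-type cells the shares were 0.110% and 0.128% untreated and 0.228% and 0.271% treated. The cause was not tested.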

How the results depend on the processing

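The count of genes called in the E33Q response (8613) stayed within 1.5 times under other scalings, DESeq2, limma-voom and other filters; leaving out each library in turn gave 6328 to 9327. It was 5475 with the trend on GC content and length removed, 5484 with that and a replicate block, 4693 against a 1.5-fold null and 3525 without both E33Q libraries numbered 2. The replicate block alone gave 8668. The balance of directions did move with the scaling: on the spike-in scale 10.1% of the called genes were higher, against 50.6% in the main fit. Same-numbered libraries had correlations of their deviations of 0.27 (E33Q) and 0.0144 (wild-type); with 2 pairs this does not establish a pairing. For the difference between the lines the count was 0 with edgeR, 4 with DESeq2 (VIM, AC008878.3 and 2 unnamed identifiers), 267 without a filter, 27 with the replicate block, 12 with the block and the GC trend removed, and 5 without both E33Q libraries numbered 2 (AC139530.2, CD74, JCHAIN, SDC1 and SMN2). Leaving out each library gave 0 to 2.

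With the GC trend removed JAK2 turned to 0.14, IFIT5 to 0.78, CDK8 to 0.61 and MED13 to 0.41, and the same values were found with the block added; HERC5 turned to 0.19 (0.20 with the block), and SDC1, not called, to -0.71 with both. The median turned to 0.50 for the Mediator kinase module (0.49 with the block), to 0.12 for ribosome biogenesis and to -0.15 for immediate early genes. The kinase module median ranged from -0.21 to 0.07 when each library was left out. The median of all genes turned to -0.41 on the spike-in scale. The causes were not tested.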

Other observations

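Beyond the interferon program, genes of the YAP/TEAD list rose more often than they fell in E33Q cells (11 of 18 higher, 1 lower), and so did genes of the Wnt and beta-catenin list (10 of 20 higher, 3 lower). Removal of the GC trend left 6 higher and 1 lower in the first and 2 higher and 2 lower in the second. Over all 16519 genes that setting gave 2998 higher and 2477 lower. On the spike-in scale the counts were 0 higher and 2 lower, and 1 higher and 3 lower. That scale gave 617 higher and 5477 lower over all 16519 genes. The list medians there were 0.20 and 0.48, against -0.41 over all genes. CRIM1, a YAP target, was at 71.8 and 55.5 CPM untreated and at 147 and 145.5 CPM treated (1.20 ± 0.18), and its call was missed on the spike-in scale (0.67, adjusted p = 0.0878).

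Of 11 tested ERBB ligands and receptors with KITLG 3 rose and 4 fell (against 26.4% and 25.8% of all genes), and on the spike-in scale 1 and 6. ERBB2 rose from 23.0 and 14.5 to 58.9 and 60.2 CPM (1.67 ± 0.26) and EGFR from 52.6 and 47.2 to 108 and 102 CPM (1.07 ± 0.14), or 0.74 and 0.42 without the GC trend, the latter not called on the spike-in scale (adjusted p = 0.0943). Of 27 genes of the stress response 5 were higher and 10 lower (26.4% and 25.8% of all genes), and on the spike-in scale 1 and 13. DDIT3, the stress factor CHOP, fell from 31.7 and 32.2 to 10.3 and 10.9 CPM (-1.60 ± 0.24), and the amino acid transporter SLC7A5 rose from 193 and 136 to 533 and 507.5 CPM (1.66 ± 0.22, or 0.59 without the GC trend).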
